A study of Mus musculus with 48 samples.

Results

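The Toll-like receptors TLR1 to TLR9 and their adaptor MYD88 were followed across early mouse B-cell development, in cells with Ikzf1 deleted or knocked down and in controls. The Ikzf1 gene encodes Ikaros, a DNA-binding zinc finger protein. The members were the 10 gene models whose symbol is TLR1, TLR2, TLR3, TLR4, TLR5, TLR6, TLR7, TLR8, TLR9 or MYD88, out of 21025 gene models measured, and each symbol had a single model. RNA was sequenced in 30 libraries from C57BL/6 cells. Deleted pro-B cells were Ikzf1(fl/-) Cd79a(Cre/+) and their controls Ikzf1(fl/+) Cd79a(Cre/+), so the controls also carried Cre and a floxed allele, beside a wild-type allele, and the Cre came from Cd79a, a B-lineage gene. This pair of genotypes was profiled in total pro-B cells, in c-Kit-high pro-B cells and, with Rag2(-/-) added to both, in Rag2-null pro-B cells, with 2 deleted and 2 control libraries each. Pre-B cells were wild-type, in 2 libraries. Pre-pro-B cells were Ebf1(-/-) and carried the Ikzf1 hairpin Ik4056, the Ikzf1 hairpin Ik2709, the control hairpin Ren713 or an empty vector, in 4 libraries each. The ages of the mice and whether replicates came from separate animals or cultures are not given in the labels, and the p-values therefore reflect just the spread among these libraries, which may be technical.

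Total pro-B libraries held 10.4 to 12.5 M reads, as implied by their low values, Rag2-null ones 27.2 to 34.3 M and pre-pro-B ones 17.3 to 36.5 M. Of the c-Kit-high libraries, deleted replicate 1 had 9.46 M and control replicate 2 had 2.31 M, and the depth of 4 libraries (deleted replicate 2 and control replicate 1 of the c-Kit-high cells, and both pre-B libraries) could not be read from the values. The Ikzf1 row, which covers the whole gene model, stood at 45.3 to 48.9 RPKM in deleted and 56.4 to 59.2 RPKM in control pro-B cells, at 64.5 to 86.0 against 101 to 124 RPKM in c-Kit-high cells, at 36.7 to 39.9 against 56.2 to 62.3 RPKM in Rag2-null cells, and at 23.7 to 60.6 RPKM under the Ikzf1 hairpins against 106 to 145 RPKM in their controls. A summed list of 11 B-lineage markers reached 3591 to 8832 RPKM in the pro-B and pre-B libraries but 36.5 to 95.2 RPKM in the Ebf1-/- pre-pro-B libraries, where the Ebf1 row, again over the whole gene model, stood at 14.8 to 32.1 RPKM. There Pax5 did not exceed 0.296 RPKM and Cd79a did not exceed 0.196 RPKM. The pre-B libraries stood apart: 9 granulocyte markers summed to 7635 to 7902 RPKM there, so values from them are those of libraries that also hold granulocyte transcripts. The c-Kit-high libraries held the same markers at 139 and 339 RPKM in deleted and 690 and 109 RPKM in control cells. These are bulk samples, in which more cells of a type and more RNA per cell cannot be told apart.

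Toll-like receptors are innate sensors of microbial products. TLR1, TLR2, TLR4, TLR5 and TLR6 act at the cell surface, where TLR2 pairs with TLR1 or TLR6 to bind lipopeptides, TLR4 detects lipopolysaccharide and TLR5 detects flagellin. TLR3, TLR7, TLR8 and TLR9 act in endosomes on nucleic acids, TLR9 on DNA with unmethylated CpG. All but TLR3 signal through MYD88 to IRAK kinases, TRAF6 and NF-kappaB, and B cells use TLR9 and TLR7 to respond directly to nucleic acids.

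The promoters of TLR9, TLR2 and MYD88, the members called in total pro-B cells, are shown from the RefSeq table (GRCm38.p6), each running 250 bases before to 50 bases after the gene's start, 5′ to 3′ on the gene's strand. Capitals mark matches to TGGGAA, a core of Ikaros binding sites, searched on both strands, so that TTCCCA is the same word on the other strand.
Tlr9 at chr9:106222348-106222647, + strand: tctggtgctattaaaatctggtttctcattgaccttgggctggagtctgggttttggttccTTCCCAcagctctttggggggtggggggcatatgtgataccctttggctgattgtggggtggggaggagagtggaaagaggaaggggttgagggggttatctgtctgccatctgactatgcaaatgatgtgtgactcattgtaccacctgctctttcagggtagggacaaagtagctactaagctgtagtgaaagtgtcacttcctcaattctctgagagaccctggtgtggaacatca
Tlr2 at chr3:83841559-83841858, - strand: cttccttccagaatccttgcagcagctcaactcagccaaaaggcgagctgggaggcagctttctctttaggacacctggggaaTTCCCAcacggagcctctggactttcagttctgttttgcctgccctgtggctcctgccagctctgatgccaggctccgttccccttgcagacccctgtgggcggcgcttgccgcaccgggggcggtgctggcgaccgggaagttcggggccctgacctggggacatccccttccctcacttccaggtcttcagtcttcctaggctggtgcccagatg
Myd88 at chr9:119339969-119340268, - strand: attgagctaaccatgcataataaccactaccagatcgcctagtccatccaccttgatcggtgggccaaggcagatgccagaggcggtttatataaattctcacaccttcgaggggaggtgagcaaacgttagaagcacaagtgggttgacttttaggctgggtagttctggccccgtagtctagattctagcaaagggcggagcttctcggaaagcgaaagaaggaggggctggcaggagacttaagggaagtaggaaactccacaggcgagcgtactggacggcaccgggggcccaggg
The Tlr9 and the Tlr2 promoter each held 1 match and the Myd88 promoter 0. Promoters were given for 8 of the 10 members (none for Tlr4 and Tlr7), 10 promoters in all because Tlr1 and Tlr6 have 2 each, and 3 of the 10 held the word, the third being a promoter of Tlr6. Of all 32851 promoters in the table, 25.6% held it. A match is a description of the letters in this window only.

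MYD88 was the most abundant member in every group except the pre-B cells, where TLR9 was higher. Its group means spanned only 26.7 RPKM (control pro-B) to 44.9 RPKM (Ik2709 pre-pro-B), and every neighbouring pair of groups in that order overlapped. TLR9 spanned 1.91 RPKM (Ren713 pre-pro-B) to 49.7 RPKM (pre-B). Its order ran pre-B, deleted pro-B (22.4 RPKM), deleted Rag2-null (12.2 RPKM) and deleted c-Kit-high cells (10.6 RPKM), with no overlap between neighbours; the Ik4056, control Rag2-null and Ik2709 groups, at 7.13, 7.07 and 6.53 RPKM, overlapped, and so did control c-Kit-high cells with the empty vector group and that group with Ren713.

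**Figure D1:**
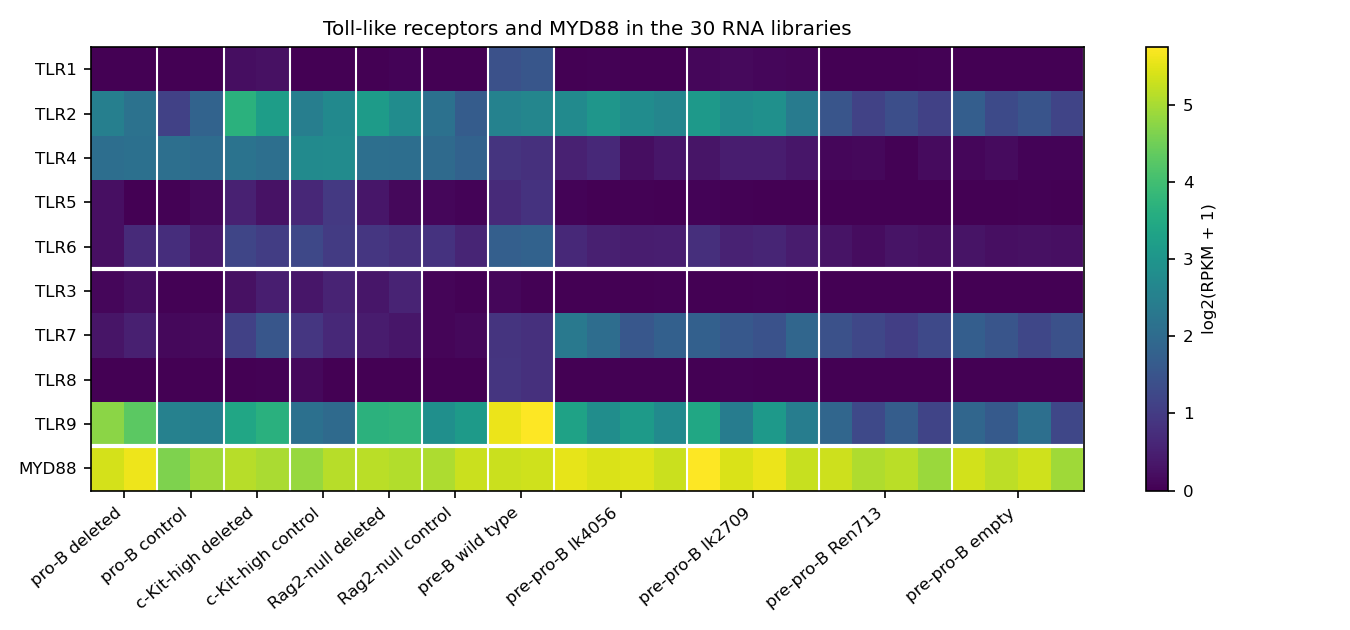
Level of the 10 members as log2(RPKM + 1), by colour, in each of the 30 libraries, with surface receptors in the upper block of rows, endosomal receptors in the middle block and MYD88 in the last row. MYD88 is high in all libraries, TLR9 is highest in the 2 pre-B libraries (47.2 and 52.1 RPKM), and TLR3, TLR5 and TLR8 stay under 1 RPKM throughout.

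Among the surface receptors, TLR2 ranged from 1.45 RPKM (Ren713) to 9.96 RPKM (deleted c-Kit-high cells). TLR4 was highest in the pro-B groups. Its group means were 2.75 to 5.81 RPKM in the 6 pro-B groups. They were 0.784 RPKM in pre-B cells and 0.0663 to 0.363 RPKM in the 4 pre-pro-B groups. The pre-pro-B and pre-B cells also differ from the pro-B cells in genotype, and the pre-B libraries hold granulocyte transcripts. Stage cannot be told apart from these. TLR6 was highest in pre-B cells (2.42 RPKM) and lay between 0.196 and 1.19 RPKM elsewhere. TLR1 reached 1.71 and 1.90 RPKM in the pre-B libraries and no more than 0.193 RPKM in any other library; it was listed at 0 in both deleted and both control pro-B libraries, where 3 reads would give 0.0942 to 0.114 RPKM. TLR1 and TLR6 are neighbouring paralogs with similar sequences, and the sources used here do not give how reads shared between gene models were counted. TLR5 did not exceed 0.945 RPKM in any library.

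Among the endosomal receptors, TLR7, a sensor of single-stranded RNA, was highest in pre-pro-B cells, with group means of 1.39 to 2.89 RPKM, against 0.0760 to 1.53 RPKM in the pro-B groups and 0.777 RPKM in pre-B cells. Stage and genotype cannot be told apart in these levels. TLR3, the double-stranded RNA sensor, did not exceed 0.499 RPKM in any library. TLR8 was listed at 0 in 24 of 30 libraries and was highest in the 2 pre-B libraries, at 0.848 and 0.748 RPKM. TLR9 made up 72.9% of the summed RPKM of the 9 receptors in deleted pro-B cells and 44.8% in control pro-B cells, whereas TLR4 made up 10.8% and 30.7%. In Rag2-null cells the share of TLR9 was 50.8% in deleted and 52.5% in control cells.

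**Figure D2:**
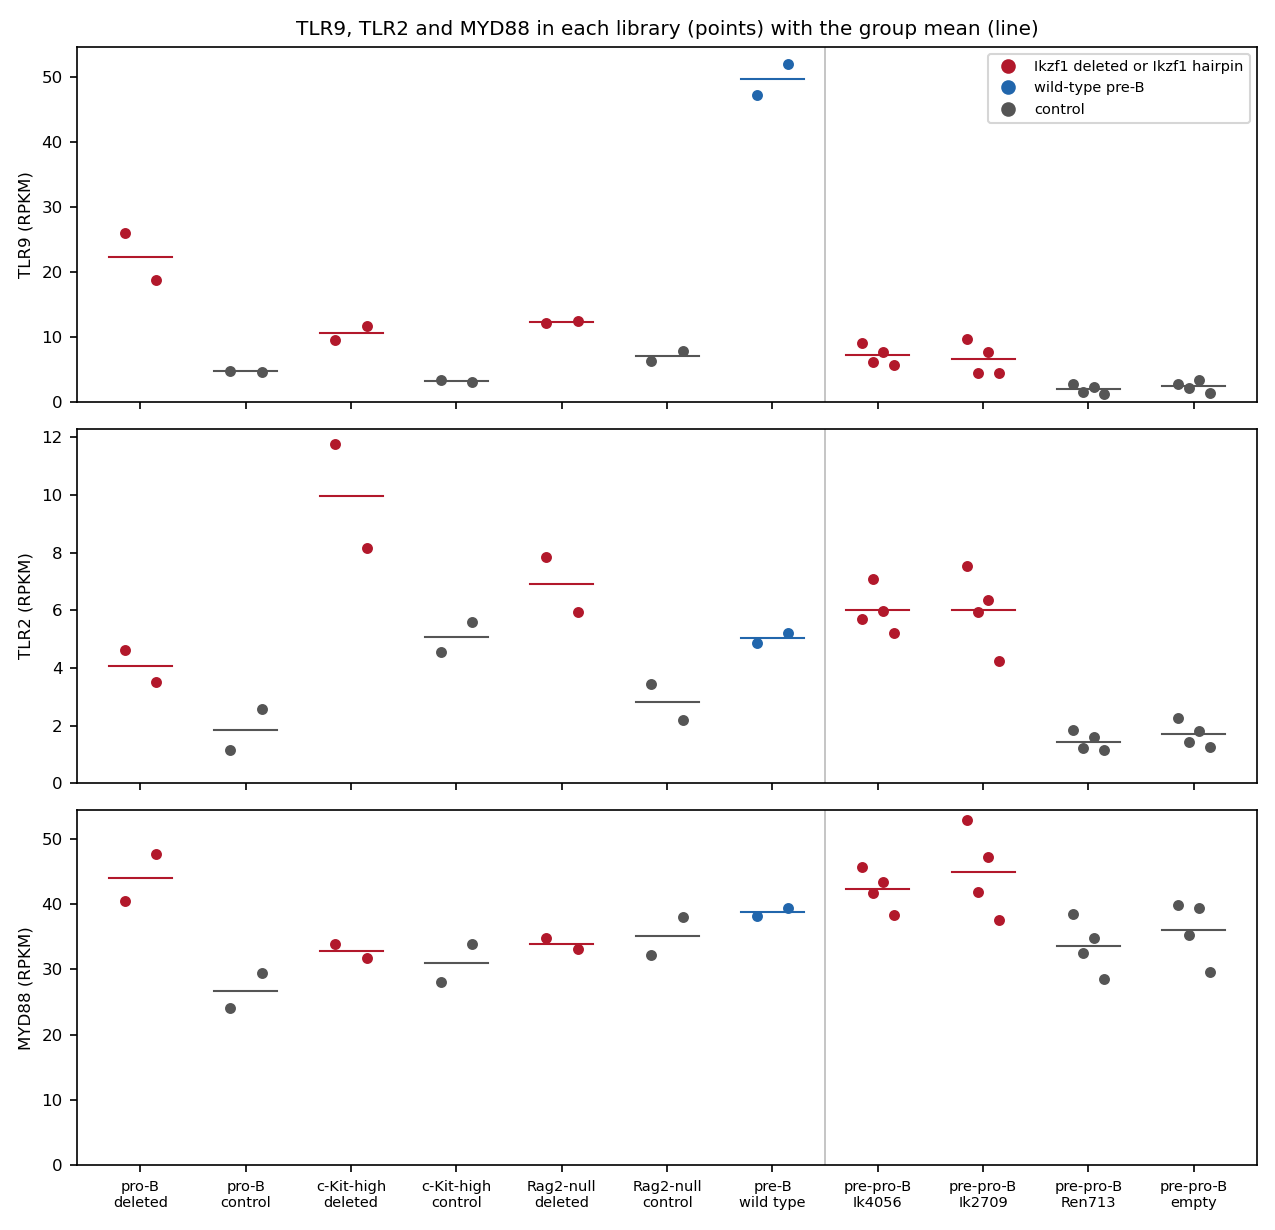
RPKM of TLR9 (top), TLR2 (middle) and MYD88 (bottom) in every library; points are libraries, lines are group means, red is Ikzf1 deleted or an Ikzf1 hairpin, blue is wild-type pre-B and grey is control, and the vertical line separates pre-pro-B cells. For TLR9 and TLR2 all red points lie above the grey points of their own cell type, while for MYD88 they do so only in total pro-B cells.

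Deletion of Ikzf1 in total pro-B cells raised TLR9, TLR2 and MYD88. TLR9 had 26.0 and 18.7 RPKM in deleted cells, against 4.76 and 4.59 RPKM in control cells. Both deleted libraries were far above both controls, the ratio of means was 4.79, and the difference was 2.02 ± 0.17 on the log2(RPKM + 1) scale (SE, limma, adjusted p = 4.17e-06, n = 2 each). This scale, used for every difference below, understates changes of low genes, and limma pools the spread over the 7 pro-B and pre-B groups; adjusted p-values are Benjamini-Hochberg values over all genes tested. MYD88 had 40.5 and 47.6 RPKM in deleted cells and 24.1 and 29.4 RPKM in control cells. The groups did not overlap, and MYD88 rose by 0.70 ± 0.14 (limma, adjusted p = 0.00285). TLR2 had 4.61 and 3.51 RPKM in deleted cells and 1.15 and 2.57 RPKM in control cells. It too was higher in both deleted libraries, by 0.86 ± 0.27 (limma, adjusted p = 0.0337).

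The other members gave no call in this comparison. TLR4 had 3.21 and 3.39 RPKM in deleted cells and 3.28 and 3.12 RPKM in control cells, a difference of 0.03 ± 0.15 with overlapping libraries. TLR7 was higher in both deleted libraries (0.259 and 0.426 RPKM) than in both controls (0.0923 and 0.104 RPKM), but its difference of 0.29 ± 0.17 did not pass (limma, adjusted p = 0.27). TLR6 differed by -0.12 ± 0.20, and TLR1 was at 0 in all 4 libraries. Of the 10 members 7 passed the filter of at least 1 RPKM in 2 libraries of the fit; TLR3, TLR5 and TLR8 did not. Thus 3 of 7 tested members were called higher and 0 lower, beside 23.4% of all 11937 genes called in either direction. TLR1, TLR6 and TLR7 were under 1 RPKM in these 4 libraries and entered the fit through other groups, which in part set the number tested. The TLR2 call was lost when deleted replicate 1 was left out (0.70, adjusted p = 0.184), deleted replicate 2 (1.02, adjusted p = 0.0592) or control replicate 1 (0.50, adjusted p = 0.309), by limma each time.

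Markers of other cells moved in part with these genes. The granulocyte list summed to 4.97 to 6.95 RPKM in deleted and 0.580 to 0.725 RPKM in control pro-B cells, with 1 of 9 tested markers called, Prtn3; S100a8, S100a9, Ngp and Elane were at 0 in all 4 libraries. The monocyte and macrophage list summed to 18.7 to 26.3 RPKM in deleted and 19.8 to 20.4 RPKM in control cells, with 2 of 11 tested markers higher and 1 lower, and Adgre1, C1qa, C1qb and C1qc were at 0 in all 4. The mature B list summed to 104 to 105 RPKM in deleted and 13.6 to 14.7 RPKM in control cells, with 2 of 4 tested markers higher, Cd22 and Ciita. The sum of the T and NK list went the other way, at 54.9 to 65.7 RPKM in deleted and 138 to 146 RPKM in control cells, with 0 of 5 tested markers called. Of its 8 genes 7 were at 0 in both deleted libraries, and 6 and 5 were at 0 in the controls, so few genes made up this sum. The dendritic list summed to 162 to 191 RPKM in deleted and 210 to 226 RPKM in control cells, with Irf8 lower among 3 tested. Of the 11 B-lineage markers 1 was higher and 6 were lower. The part of these markers in the result was not tested.

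In c-Kit-high pro-B cells TLR9 and TLR2 were again higher after deletion and TLR4 was lower. The c-Kit-high libraries carry library numbers of several ranges, and only deleted replicate 2 and control replicate 1 have consecutive numbers. In this pair TLR9 had 11.6 against 3.34 RPKM, TLR2 8.15 against 4.54 RPKM and TLR4 3.29 against 5.77 RPKM. The part of the ranges in the result was not tested. TLR9 had 9.53 and 11.6 RPKM in deleted cells and 3.34 and 2.99 RPKM in control cells. The groups were well apart, at 1.47 ± 0.17 (limma, adjusted p = 6.56e-05). TLR4 had 3.55 and 3.29 RPKM in deleted cells and 5.77 and 5.84 RPKM in control cells. Both deleted libraries were lower than both controls, so that TLR4 fell by 0.62 on the log2 scale (SE 0.15, limma, adjusted p = 0.0127). TLR2 had 11.8 and 8.15 RPKM in deleted cells and 4.54 and 5.60 RPKM in control cells, without overlap, a difference of 0.84 ± 0.27 (limma, adjusted p = 0.0480). TLR7 had 1.17 and 1.89 RPKM in deleted cells and 0.872 and 0.577 RPKM in control cells, also without overlap, at 0.54 ± 0.17 (limma, adjusted p = 0.0479). These 2 deleted libraries were the only ones of the 14 in the fit with at least 1 RPKM of TLR7, so TLR7 passed the filter only through the group in which it was high, and its call supports nothing beyond these values.

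MYD88 gave no call in c-Kit-high cells, where it had 34.0 and 31.7 RPKM in deleted and 28.1 and 33.9 RPKM in control cells, 0.09 ± 0.14 (limma, adjusted p = 0.74). TLR6 differed by -0.00 ± 0.20. TLR1 was seen at 0.166 and 0.193 RPKM in the deleted libraries and at 0 in both controls, but 3 reads are worth 0.511 RPKM in control replicate 2, and its difference of 0.24 ± 0.13 was not called. The fit called 3 of 7 members higher, TLR7 among them, and 1 lower, beside 17.2% of all genes called in either direction; the filter in part set this count, since TLR7 entered through the deleted c-Kit-high libraries and TLR1 through the pre-B libraries.

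TLR9 was called in all 13 alternative fits of this comparison, whereas TLR2 was called in only 2 of 13, TLR7 in 3 of 10 and TLR4 in 10 of 13. TLR2 lost its call without deleted replicate 1 (0.60, adjusted p = 0.285) or replicate 2 (1.08, adjusted p = 0.0524) and without control replicate 1 (0.71, adjusted p = 0.164) or replicate 2 (0.96, adjusted p = 0.0882), by limma. TLR4 lost its call without deleted replicate 2 (-0.58, adjusted p = 0.0754) or control replicate 2 (-0.62, adjusted p = 0.0508), and TLR7 without control replicate 2 (0.42, adjusted p = 0.228). The granulocyte sums given above overlapped between deleted and control c-Kit-high cells, 0 of 9 tested markers of that list were called, and the 2 controls with 690 and 109 RPKM of it had 5.77 and 5.84 RPKM of TLR4. The monocyte and macrophage sums were 75.2 to 75.9 RPKM in deleted and 60.1 to 95.8 RPKM in control cells, with 3 of 11 tested markers higher (Csf1r, Cd68 and Ccr2), and the mature B sums 144 to 159 against 17.5 to 24.4 RPKM. The dendritic sums were 258 to 273 RPKM in deleted and 161 to 226 RPKM in control cells, with Irf8 higher (0.67, limma, adjusted p = 0.00268) among 3 tested, and the T and NK sums 53.8 RPKM in both deleted libraries against 29.2 to 31.4 RPKM in control cells, with Klrb1c lower (-2.40, limma, adjusted p = 1.05e-05) among 5 tested. Of the 11 B-lineage markers 3 were lower. The part of these markers in the result was not tested.

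In Rag2-null pro-B cells, which cannot rearrange immunoglobulin genes, TLR2 and TLR9 were higher after deletion and no other tested member was called. TLR2 had 7.86 and 5.94 RPKM in deleted cells and 3.44 and 2.20 RPKM in control cells. The groups did not overlap, and the difference was 1.06 ± 0.27 (limma, adjusted p = 0.0131). TLR9 had 12.1 and 12.4 RPKM in deleted cells and 6.29 and 7.85 RPKM in control cells. It was higher in both deleted libraries, by 0.72 ± 0.17 (limma, adjusted p = 0.00887), a ratio of means of 1.73. MYD88 had 34.8 and 33.1 RPKM in deleted cells and 32.3 and 38.0 RPKM in control cells, overlapping, at -0.04 ± 0.14.

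TLR4 was slightly higher in both deleted Rag2-null libraries (3.28 and 3.19 RPKM) than in both controls (3.00 and 2.51 RPKM), at 0.18 ± 0.15 without a call. TLR7 also did not overlap, with 0.347 and 0.268 RPKM in deleted and 0.0626 and 0.0894 RPKM in control cells, and was not called (0.28 ± 0.17). TLR3 was under the filter; it had 0.266 and 0.491 RPKM in deleted and 0.0541 and 0.0258 RPKM in control cells, and the fit without a filter gave 0.40 ± 0.11 (limma, adjusted p = 0.0303). The count was 2 of 7 tested members higher and 0 lower, beside 22.3% of all genes in either direction. Here too TLR1, TLR6 and TLR7 were under 1 RPKM and entered the fit through other groups. TLR2 lost its call without deleted replicate 1 (0.88, adjusted p = 0.107) or control replicate 2 (0.82, adjusted p = 0.106), and TLR9 without deleted replicate 2 (0.70, adjusted p = 0.0555) or control replicate 1 (0.58, adjusted p = 0.0572), by limma.

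The granulocyte list summed to 7.41 to 11.3 RPKM in deleted and 0.153 to 0.777 RPKM in control Rag2-null cells, with Prtn3 called among 9 tested, and S100a9, Ngp and Elane at 0 in all 4 libraries. The monocyte and macrophage list summed to 42.0 to 50.9 RPKM in deleted and 12.0 to 31.2 RPKM in control cells, with 3 of 11 tested markers higher (Csf1r, Cd68 and Fcgr1) and Adgre1, C1qa, C1qb and C1qc at 0 in all 4; its part in the result was not tested. The mature B list, which moved in the other deletions, summed to 10.3 to 15.3 RPKM in deleted and 8.37 to 9.23 RPKM in control Rag2-null cells, with 0 of 4 tested markers called.

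**Figure D3:**
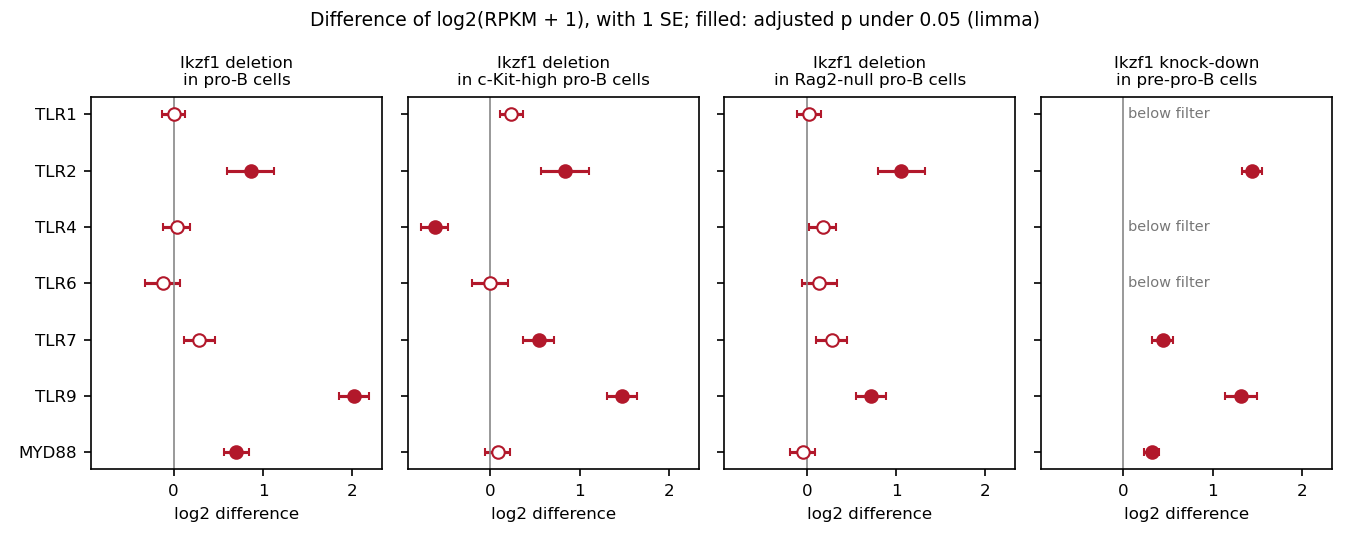
Difference of log2(RPKM + 1) for the 7 members that passed the filter in pro-B cells, with 1 SE, in the 3 deletions (deleted minus control) and the knock-down (Ikzf1 hairpins minus controls); filled points have an adjusted p under 0.05 by limma. TLR9 and TLR2 are filled and to the right in all 4 panels, MYD88 in total pro-B cells (0.70) and in the knock-down (0.32), and TLR4 is filled to the left in c-Kit-high cells (-0.62).

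The size of the deletion effect was itself compared between the settings. The TLR9 effect was smaller in Rag2-null than in Rag2-intact pro-B cells, by -1.31 ± 0.24 (limma interaction, adjusted p = 0.00308), being 0.72 in Rag2-null and 2.02 in Rag2-intact cells. The Rag2-null libraries were sequenced more deeply and carry library numbers of another range, which cannot be told apart from the Rag2 genotype in this comparison. The Rag2 row itself, which covers the whole gene model, stood at 1.5 to 1.85 RPKM in deleted and 1.5 to 3.55 RPKM in control Rag2-null cells, and at 0.0238 to 0.0261 RPKM in deleted and 4.40 to 6.14 RPKM in control Rag2-intact cells, so the deleted cells labelled with intact Rag2 had the lowest Rag2 level of these 4 groups; its part in the result was not tested. The MYD88 effect was also smaller in Rag2-null cells, by -0.75 ± 0.20 (limma interaction, adjusted p = 0.0262), being -0.04 in Rag2-null and 0.70 in Rag2-intact cells. The TLR2 effects differed by 0.20 ± 0.38 and were not called as different (limma, adjusted p = 0.833). Thus 2 of 7 tested members had a different effect, beside 13.1% of all genes. The MYD88 interaction lost its call when any of 5 of the 8 libraries was left out, with values from -0.78 (without Rag2-null deleted replicate 1, adjusted p = 0.0596) to -0.61 (without control replicate 1 of the Rag2-intact cells, adjusted p = 0.121); the others were Rag2-intact deleted replicate 2 (-0.63, adjusted p = 0.115), Rag2-null deleted replicate 2 (-0.71, adjusted p = 0.0824) and Rag2-null control replicate 2 (-0.63, adjusted p = 0.0748), by limma.

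Between c-Kit-high and total pro-B cells 0 of 7 tested members differed in their deletion effect by limma, with 3 under an unadjusted p of 0.05, beside 6.7% of all genes called. The values of those 3 members were -0.55 ± 0.24 for TLR9 (adjusted p = 0.206), -0.62 ± 0.20 for MYD88 (adjusted p = 0.0872) and -0.66 ± 0.21 for TLR4 (adjusted p = 0.0936), each c-Kit-high minus total, by limma. The MYD88 value was called when c-Kit-high control replicate 1 was left out (-0.75, limma, adjusted p = 0.0481).

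Knock-down of Ikzf1 in Ebf1-/- pre-pro-B cells raised the 4 members that these cells expressed above the filter. TLR2 ranged from 4.24 through a median of 5.96 to 7.53 RPKM in the 8 hairpin libraries and from 1.15 through 1.52 to 2.27 RPKM in the 8 control libraries. The groups did not overlap, the ratio of means was 3.82, and the difference was 1.44 ± 0.11 (limma, adjusted p = 1.94e-07, n = 8 each). TLR9 ranged from 4.37 through 6.82 to 9.74 RPKM in hairpin libraries and from 1.26 through 2.16 to 3.28 RPKM in control libraries. It did not overlap either, at 1.32 ± 0.18 (limma, adjusted p = 5.56e-05). TLR7 ranged from 1.72 through 2.41 to 4.00 RPKM in hairpin libraries and from 1.10 through 1.55 to 2.27 RPKM in control libraries, overlapping but higher on average, at 0.44 ± 0.12 (limma, adjusted p = 0.0128). MYD88 ranged from 37.5 through 42.6 to 52.9 RPKM in hairpin libraries and from 28.5 through 35.1 to 39.9 RPKM in control libraries, also overlapping, at 0.32 ± 0.09 (limma, adjusted p = 0.0181). The MYD88 call was lost under median-ratio scaling (0.26, adjusted p = 0.109) and for Ik4056 (0.33, adjusted p = 0.0988) or Ik2709 (0.40, adjusted p = 0.0597) against Ren713 alone, and the TLR7 call under quantile normalization (0.27, adjusted p = 0.0789) and for Ik2709 against Ren713 (0.42, adjusted p = 0.153), by limma.

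The 16 libraries form 4 runs of consecutive library numbers, each with all 4 constructs. Within each of the 4 runs both hairpin libraries exceeded both control libraries for TLR2, TLR9, TLR7 and MYD88, and also for TLR4 and TLR6. TLR1, TLR3 and TLR5 did so in 1 of 4 runs and TLR8 in 0. The share of all genes with this pattern is not given here. TLR4 and TLR6 were under the filter: TLR4 averaged 0.341 ± 0.130 RPKM in hairpin libraries and 0.0710 ± 0.0356 RPKM in control libraries, and TLR6 averaged 0.478 ± 0.123 RPKM in hairpin libraries and 0.20 ± 0.0341 RPKM in control libraries (SD, n = 8 each). The fit without a filter gave 0.32 ± 0.05 for TLR4 (limma, adjusted p = 0.000589) and 0.30 ± 0.05 for TLR6 (limma, adjusted p = 0.000337). TLR1, TLR3, TLR5 and TLR8 did not exceed 0.104 RPKM in any pre-pro-B library. So 4 of 4 tested members were called higher, beside 19.4% of all 10744 genes in either direction; with the run as a replicate block all 4 were again called, beside 51.9% of all genes.

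Between Ik4056 and Ik2709 0 of the 4 tested members were called by limma and 0 had an unadjusted p under 0.05, beside 3.33% of all genes called. The TLR9 difference between the hairpins was 0.16 ± 0.25 and that of TLR7 0.26 ± 0.16. Between Ren713 and the empty vector 0 members were called by limma, 0 had an unadjusted p under 0.05, and 0 of all genes were called (0%, with 58 genes under an unadjusted p of 0.05). The hairpin libraries also held more myeloid transcript. The granulocyte list summed to 445 to 1314 RPKM in hairpin libraries and 25.6 to 114 RPKM in control libraries, with all 4 tested markers higher (Prtn3, Mpo, Elane and Ltf), while S100a8 and S100a9 were at 0 in all 16 libraries. The monocyte and macrophage list summed to 73.0 to 116 RPKM in hairpin libraries and 13.8 to 20.4 RPKM in control libraries, with 6 of 8 tested markers higher and Adgre1 lower, and C1qa was at 0 in all 16. The T and NK list summed to less, at 205 to 376 RPKM in hairpin libraries and 462 to 748 RPKM in control libraries, with 1 of 3 tested markers higher and 1 lower. The dendritic list summed to 300.4 to 657 RPKM in hairpin and 188 to 399 RPKM in control libraries, overlapping, with 2 of 6 tested markers higher and 1 lower; Irf8 rose by 1.67 (limma, adjusted p = 4.43e-06). Of 6 tested B-lineage markers 3 were higher and 2 lower. The part of these transcripts in the members' result was not tested.

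**Figure D4:**
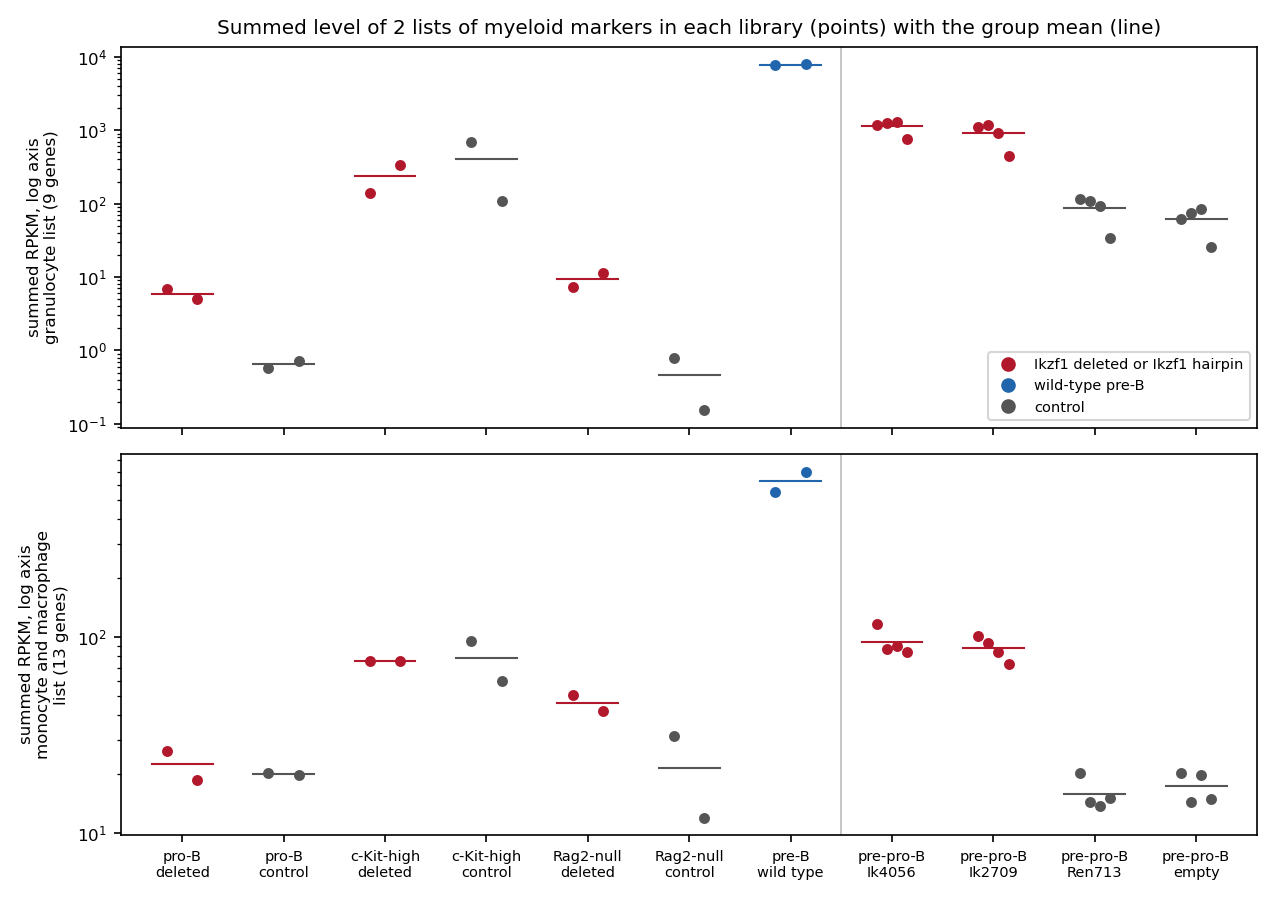
Summed RPKM, on a log axis, of 9 granulocyte markers (top) and 13 monocyte and macrophage markers (bottom) in each library; points are libraries, lines are group means, red is Ikzf1 deleted or an Ikzf1 hairpin, blue is wild-type pre-B and grey is control. The granulocyte sum is highest in pre-B cells (7635 and 7902 RPKM), separates hairpin from control pre-pro-B libraries, and overlaps between deleted and control c-Kit-high cells.

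A further 3 comparisons between groups without Ikzf1 deletion or knock-down addressed stage and Rag2 status; all of them use the total pro-B controls, which the pro-B deletion uses too. In control c-Kit-high cells, 4 of 7 tested members were higher than in control total pro-B cells and 1 was lower, beside 50.8% of all genes called. TLR2 had 4.54 and 5.60 RPKM in c-Kit-high cells against 1.15 and 2.57 RPKM in total cells, at 1.13 ± 0.27 (limma, adjusted p = 0.00377). TLR4 had 5.77 and 5.84 RPKM in c-Kit-high cells against 3.28 and 3.12 RPKM in total cells, at 0.70 ± 0.15 (limma, adjusted p = 0.00232). Both receptors were higher in every c-Kit-high control library. TLR7 rose by 0.65 ± 0.17 (limma, adjusted p = 0.00763), TLR6 by 0.53 ± 0.20 (limma, adjusted p = 0.0407), and TLR9 fell by 0.45 on the log2 scale (SE 0.17, limma, adjusted p = 0.0419). TLR7 was under 1 RPKM in both groups compared and passed the filter only through the deleted c-Kit-high libraries. All 9 granulocyte markers were also higher in these c-Kit-high controls, and their part in the result was not tested. The c-Kit-high controls also carry library numbers of other ranges than the total controls, which cannot be told apart from the c-Kit level. TLR2 lost its call without total control replicate 1 (0.76, adjusted p = 0.053), TLR6 without total control replicate 2 (0.36, adjusted p = 0.257) or c-Kit-high control replicate 1 (0.41, adjusted p = 0.18), and TLR9 without any 1 of the 4 libraries (-0.51 to -0.39, adjusted p = 0.0642 to 0.152), by limma.

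Between Rag2-null and Rag2-intact controls 1 of 7 tested members was called, beside 31.6% of all genes. TLR9 had 6.29 and 7.85 RPKM in Rag2-null and 4.76 and 4.59 RPKM in Rag2-intact control cells, at 0.50 ± 0.17 (limma, adjusted p = 0.0388). It lost its call without any of 3 libraries, Rag2-intact replicate 1 (0.52, adjusted p = 0.116) or 2 (0.48, adjusted p = 0.148) or Rag2-null replicate 2 (0.36, adjusted p = 0.194), by limma. MYD88 had 32.3 and 38.0 RPKM in Rag2-null and 24.1 and 29.4 RPKM in Rag2-intact cells, at 0.38 ± 0.14 and just short of a call (limma, adjusted p = 0.0537); without Rag2-null replicate 1 it was called (0.50, adjusted p = 0.0462). The Rag2-null libraries were also sequenced more deeply and carry library numbers of another range, which cannot be told apart from the genotype.

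Between wild-type pre-B cells and control pro-B cells the fit called 6 of 7 members higher and 1 lower, beside 68.8% of all genes called. TLR1 passed the filter only through the 2 pre-B libraries in which it was high, so its call and its place in the count were in part set by the filter. TLR9 had 47.2 and 52.1 RPKM in pre-B cells and 4.76 and 4.59 RPKM in control pro-B cells, at 3.16 ± 0.17 (limma, adjusted p = 1.10e-08), the largest difference of any member in any of these comparisons. TLR1 differed by 1.49 ± 0.13, TLR6 by 1.18 ± 0.20 and TLR2 by 1.12 ± 0.27 (limma, adjusted p = 7.67e-07, 0.000184 and 0.00225 in that order). TLR7 and MYD88 were higher by 0.69 ± 0.17 and 0.53 ± 0.14 (limma, adjusted p = 0.00312 and 0.00475 in that order). Here too TLR7 was under 1 RPKM in both groups and passed the filter only through the deleted c-Kit-high libraries. TLR4 had 0.825 and 0.743 RPKM in pre-B and 3.28 and 3.12 RPKM in control pro-B cells and fell by 1.24 on the log2 scale (SE 0.15, limma, adjusted p = 1.22e-05). MYD88 lost its call without control pro-B replicate 1 (0.39, limma, adjusted p = 0.064). Against the c-Kit-high controls in place of the total ones TLR2 (-0.00), TLR7 (0.05, adjusted p = 0.843) and MYD88 (0.32, adjusted p = 0.0757) were not called, by limma. Stage, genotype, the range of library numbers and the granulocyte transcripts of the pre-B libraries cannot be told apart in this comparison. All 9 granulocyte markers and all 11 tested monocyte and macrophage markers were higher in the pre-B libraries.

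The rest of the pathway was read from 9 lists with 82 genes. In total pro-B cells 23 of 67 tested genes were higher after deletion and 8 lower; in c-Kit-high cells 10 were higher and 6 lower of 67; in Rag2-null cells 15 were higher and 4 lower of 67; and in the knock-down 22 were higher and 3 lower of 64. Over all genes the shares called in either direction were 23.4%, 17.2%, 22.3% and 19.4% in the same order.

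**Figure D5:**
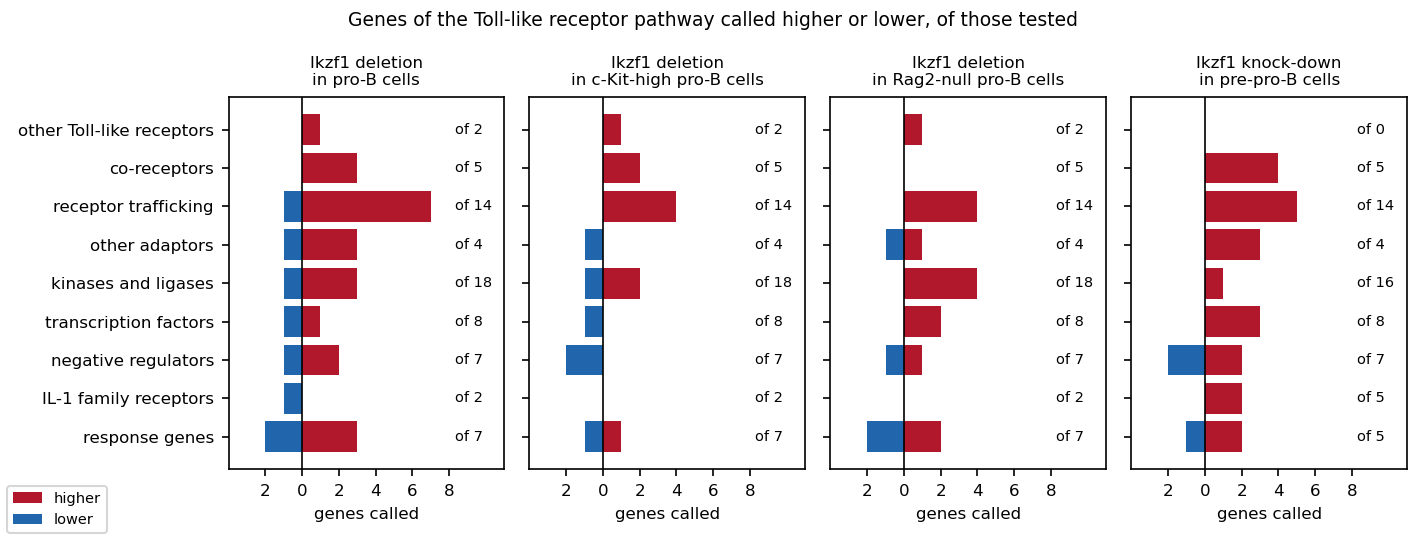
Number of genes called higher (red, right) or lower (blue, left) in each of 9 lists of the Toll-like receptor pathway, with the number tested at the right edge, for the 3 deletions and the knock-down. Receptor trafficking has 7 of 14 genes called higher and 1 lower in total pro-B cells. It has 5 of 14 called higher in the knock-down and 4 of 14 in either other deletion.

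Among co-receptors and other receptors, Tlr12, a further mouse Toll-like receptor, followed the direction of TLR9 and TLR2 in all 3 deletions. It averaged 2.77 ± 0.40 RPKM in deleted and 0.930 ± 0.226 RPKM in control pro-B cells (SD, n = 2 each), at 0.97 ± 0.25 (limma, adjusted p = 0.0140), and rose by 0.96 among c-Kit-high and by 1.42 among Rag2-null cells. Cd36, which assists TLR2 with TLR6, averaged 18.02 ± 3.05 RPKM in deleted and 4.19 ± 1.27 RPKM in control pro-B cells (1.89 ± 0.40, limma, adjusted p = 0.00533) and also rose in c-Kit-high cells (3.23 ± 0.40, limma, adjusted p = 0.000199), the effects not being called as different (1.34 ± 0.57, limma interaction, adjusted p = 0.204). Cd180 and its partner Ly86, a receptor pair of B cells related to TLR4, were higher by 1.36 each in total pro-B cells. In the knock-down, where 19.4% of all genes were called (51.9% with the run as a block), 4 of 5 tested co-receptors were higher, among them Cd14, which hands lipopolysaccharide to TLR4, at 4.02 ± 2.41 RPKM in hairpin and 0.134 ± 0.086 RPKM in control libraries (SD, n = 8 each; 2.01 ± 0.14, limma, adjusted p = 3.90e-08), and Lbp, at 4.52 ± 1.44 RPKM in hairpin and 0.582 ± 0.305 RPKM in control libraries. Of those called, Cd14, Lbp and Ly86 passed the filter only through the hairpin libraries, in which they were high. The filter therefore in part set this count.

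The trafficking list holds the chaperones that bring endosomal receptors to their compartment and the proteases that process them there. Unc93b1, the chaperone of TLR9 and TLR7, averaged 149 ± 23.9 RPKM in hairpin and 52.2 ± 7.43 RPKM in control pre-pro-B libraries (1.49 ± 0.09, limma, adjusted p = 1.28e-08). In the deletions Unc93b1 was not called, with differences of 0.10 ± 0.17 for total, -0.05 ± 0.17 for c-Kit-high and -0.22 ± 0.17 for Rag2-null pro-B cells. Pld4, an endosomal nuclease that trims DNA ligands, averaged 75.4 ± 1.79 RPKM in deleted and 6.29 ± 3.97 RPKM in control pro-B cells (3.51 ± 0.45, limma, adjusted p = 0.000363) and was also higher in c-Kit-high cells and in the knock-down. The cathepsin Ctsb was higher in all 4 comparisons, at 107 ± 6.06 RPKM in deleted and 46.2 ± 0.265 RPKM in control pro-B cells (1.20 ± 0.16, limma, adjusted p = 0.000189). Lgmn, the asparagine endopeptidase that cleaves TLR9, averaged 55.9 ± 1.03 RPKM in deleted and 19.7 ± 3.56 RPKM in control pro-B cells. Hsp90b1, also on this list, was lower, with 182.5 and 228.1 RPKM in deleted and 293.2 and 298.5 RPKM in control pro-B cells. The list's median difference was 0.46 for total pro-B, 0.31 for c-Kit-high, 0.18 for Rag2-null deletion and 0.14 for the knock-down, beside medians over all genes tested of 0.03, 0.03, 0.06 and 0.01 in the same order.

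In total pro-B cells the adaptors next to MYD88 moved in opposite directions. Ticam2, the bridging adaptor (TRAM) through which TLR4 reaches TRIF, fell in all 3 deletions. It averaged 0.409 ± 0.156 RPKM in deleted and 6.56 ± 0.0890 RPKM in control pro-B cells (-2.43 ± 0.17, limma, adjusted p = 1.27e-06), 3.79 ± 0.83 against 10.3 ± 0.487 RPKM in c-Kit-high cells (-1.25 ± 0.17) and 2.65 ± 0.221 against 7.81 ± 0.558 RPKM in Rag2-null cells (-1.27 ± 0.17). In the knock-down its difference was -0.07 ± 0.10, without a call. Tirap, the bridging adaptor of TLR2 and TLR4 to MYD88, averaged 5.92 ± 0.68 RPKM in deleted and 1.20 ± 0.0747 RPKM in control pro-B cells (1.65 ± 0.20, limma, adjusted p = 8.24e-05). Tirap was also higher in the knock-down (0.56 ± 0.14, limma, adjusted p = 0.0113). Pik3ap1, the adaptor that couples to phosphoinositide 3-kinase, averaged 222 ± 7.78 RPKM in deleted and 89.8 ± 6.68 RPKM in control pro-B cells (1.30 ± 0.18) and 49.4 ± 8.45 RPKM in hairpin and 26.4 ± 4.72 RPKM in control pre-pro-B libraries (0.87 ± 0.12). Neither Tirap nor Pik3ap1 was called in c-Kit-high or Rag2-null cells. Both were higher in both deleted c-Kit-high libraries, and both overlapped between deleted and control Rag2-null cells.

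Of the 18 kinases and ligases tested in pro-B cells 3 were higher and 1 lower in total pro-B, 2 higher and 1 lower among c-Kit-high, and 4 higher and 0 lower among Rag2-null cells, near the shares of all genes called (23.4%, 17.2% and 22.3% in that order). Peli2, a Pellino ubiquitin ligase that acts on IRAK proteins, rose in all 3 deletions. It averaged 15.1 ± 2.38 RPKM in deleted and 0.127 ± 0.0801 RPKM in control Rag2-null cells (3.83 ± 0.19, limma, adjusted p = 1.85e-07), and was higher by 2.17 in c-Kit-high and 1.63 in total pro-B cells. Irak2 rose by 0.90 in c-Kit-high cells, by 0.94 in Rag2-null cells and by 0.56 in the knock-down. In the knock-down fit Irak2 passed the filter only through the hairpin libraries, in which it was high. The filter therefore in part set its call there. Traf6, the ligase downstream of the IRAK proteins, fell in c-Kit-high cells by 0.66 on the log2 scale and was not called in the other 3 comparisons (-0.17, 0.07 and -0.01 in total pro-B, Rag2-null and knock-down cells). Ikbke fell in total pro-B cells, at 1.64 ± 0.912 RPKM in deleted and 4.48 ± 0.458 RPKM in control cells.

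Among transcription factors, Irf5, which acts with MYD88, was lower in deleted pro-B cells (11.2 ± 0.232 RPKM) than in control pro-B cells (28.0 ± 0.250 RPKM), at -1.24 ± 0.19 (limma, adjusted p = 0.000528), and lower in c-Kit-high cells (-0.82 ± 0.19), but higher in hairpin (24.5 ± 4.61 RPKM) than in control pre-pro-B libraries (15.0 ± 2.26 RPKM), at 0.67 ± 0.12 (limma, adjusted p = 0.000767). Irf7, which acts downstream of TLR7 and TLR9, was called in Rag2-null cells (1.41 ± 0.32, limma, adjusted p = 0.00767), where it averaged 9.96 ± 1.41 RPKM in deleted and 3.16 ± 0.836 RPKM in control cells, and its effect there was not called as different from that in Rag2-intact cells (1.23 ± 0.45, limma interaction, adjusted p = 0.102). Nfkb1 was higher by 0.39 in total pro-B, 0.50 in Rag2-null and 0.34 in knock-down cells.

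Among negative regulators, Sigirr, an inhibitory receptor of the pathway, fell in total pro-B cells (6.96 ± 4.39 RPKM in deleted and 18.8 ± 4.35 RPKM in control cells, -1.42 ± 0.34) and in c-Kit-high cells (-1.14 ± 0.34). Socs1 fell in Rag2-null cells (-1.27 ± 0.25) and in the knock-down (-0.70 ± 0.19). Nfkbia, the inhibitor of NF-kappaB, was higher in deleted pro-B cells (0.62 ± 0.17) and lower in the knock-down (-0.54 ± 0.11). Of the IL-1 family receptors, which share MYD88, Il1r1 averaged 7.22 ± 3.56 RPKM in hairpin and 1.36 ± 0.497 RPKM in control pre-pro-B libraries (1.70 ± 0.19, limma, adjusted p = 7.26e-06).

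Genes that Toll-like receptor signalling is known to induce did not move as a block. Ccl3, a chemokine, rose in all 4 comparisons, most in total pro-B cells, where it averaged 33.4 ± 1.12 RPKM in deleted and 0.116 ± 0.0100 RPKM in control cells (4.94 ± 0.28, limma, adjusted p = 2.50e-07). Ccl4 averaged 6.75 ± 1.44 RPKM in deleted pro-B cells and was listed at 0 in both controls. Icam1, an adhesion molecule, fell in all 4, at 2.42 ± 0.311 RPKM in deleted and 24.5 ± 0.559 RPKM in control pro-B cells (-2.90 ± 0.17, limma, adjusted p = 3.36e-07) and 19.6 ± 2.28 RPKM in hairpin and 25.5 ± 1.79 RPKM in control pre-pro-B libraries (-0.37 ± 0.08). Of 15 such genes 7 passed the filter in pro-B cells and 5 in pre-pro-B cells.

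Genes whose group means were among the most like those of each member were found by Pearson's r of log2(RPKM + 1) over the 11 groups, among 12272 genes; the groups share genotype sets and library batches of numbers, and r is a description only. For TLR9 they were Ehd4 (r = 0.907) and 4931440P22Rik (0.907), and for MYD88 Vamp8 (0.910), Ccni (0.871) and Ctsa (0.855). For TLR2 they were F13a1 (0.962), Mindy1 (0.962) and Hsd3b7 (0.931), for TLR4 Abcg2 (0.986), for TLR6 Snx29 (0.977) and for TLR7 Phka2 (0.974). For TLR1 they were Il1b (0.999) and Tspo2 (0.998), genes that, like TLR1, were highest in the pre-B libraries. Among the members themselves the highest r was between TLR1 and TLR6 (0.799) and the lowest between TLR4 and TLR7 (-0.700).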

How the data were processed

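RNA-seq values of 30 of the 48 libraries of the series were used; ChIP samples are not analysed here. Sequencing was strand-specific and single-end, per the labels' protocols. The authors deposited RPKM, counts scaled to gene model length and library size, for 21025 gene models. The submitters' processing notes name TopHat 1.4.1, HTSeq 0.5.3 and DESeq 1.8.3; the sources used here do not give how shared reads were counted. From these values log2(RPKM + 1) was computed, genes with at least 1 RPKM in 2 libraries of a fit were kept, and limma 3.58.1 (R 4.3.3, trend and robust moderation) was fitted to the 14 pro-B and pre-B libraries (11937 genes) and to the 16 pre-pro-B libraries (10744 genes), with Benjamini-Hochberg adjustment over all genes and a threshold of 0.05. The procedure was tested on simulated data. In 26 libraries low values were whole multiples of 1 read within 0.1 read, which gave the implied depth; floors cover counting error only. Members and gene lists were chosen with earlier results of these data known. All 10 members are named, and of each pathway list up to 3 called genes with the largest difference and at least 1 RPKM in the higher group; further genes named from the lists (such as Unc93b1 in the deletions) are given for comparison. For likeness the 3 genes with the highest r were taken, of which some are not reported here. Among the 16 pre-pro-B libraries, libraries of 1 run of library numbers deviated together: r was 0.52 or more in each of the 24 same-run pairs (median 0.775; between runs, median -0.22), so the runs pair the libraries. Alternatives were a pseudocount of 0.1, no filter or 5 RPKM, median-ratio and quantile scaling, other sets of libraries, the run as a block, and leaving out each library. Leaving out the pre-B libraries was added after their granulocyte transcripts were seen. Python 3.11.15, pandas 2.3.3, numpy 2.4.6 and matplotlib 3.10.9 were used.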

Additional observations from a re-analysis of the deposited data

Results flagged for a closer look

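The deletion effect of 2 members differed between Rag2-null and Rag2-intact pro-B cells by the test of the difference itself. For TLR9 the Rag2-null effect minus the Rag2-intact effect was -1.31 on the log2(RPKM + 1) scale (limma interaction, adjusted p = 0.00308). For MYD88 it was -0.75 (limma interaction, adjusted p = 0.0262). TLR9 lost this call in 1 of 17 alternatives, all 30 libraries in 1 fit (limma, adjusted p = 0.0505). MYD88 lost it in 5 of 17 alternatives. Sequencing depth and the range of library numbers cannot be told apart from the Rag2 genotype here. No library of the groups of 4 stood far from the others in 16 checks of members' values.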

How the results depend on the processing

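Of the alternatives for single members' values, 895 kept their side of the threshold, 70 lost and 10 gained a call. The 895 include values without a call that changed sign, such as MYD88 in c-Kit-high deletion (0.0852, lowest alternative -0.0476). TLR9 kept its call in 13 of 13 alternatives in total pro-B, 13 of 13 in c-Kit-high, 9 of 13 in Rag2-null and 27 of 27 in knock-down cells; TLR2 kept it in 7, 2, 10 and 27. In Rag2-null cells TLR9 was lost under quantile normalization (0.47, adjusted p = 0.0807) and with all 30 libraries in 1 fit (0.72, adjusted p = 0.125, limma).
For c-Kit-high deletion 2 members were called with a pseudocount of 0.1, median-ratio scaling, quantile normalization or the pre-B libraries left out, 1 with only the libraries compared, and 1 to 3 with a library left out. For Rag2-null deletion 0 were called under quantile normalization, 1 with all 30 libraries and 1 to 1 with a library left out. For the knock-down 7 were called with no filter and 2 for Ik2709 against Ren713. For the Rag2 difference of effects 1 was called with all 30 libraries and 1 to 2 with a library left out; for the c-Kit difference 1 with no filter, 1 without trend and robust moderation, 1 with all 30 libraries and 0 to 1 with a library left out. For c-Kit-high against total controls 3 were called at 5 RPKM or without the pre-B libraries, 2 with only the libraries compared and 3 to 4 with a library left out. For Rag2-null against intact controls 0 were called with no filter, all 30 libraries, only the libraries compared or no pre-B libraries, 2 at 5 RPKM or under either scaling, and 0 to 2 with a library left out. For pre-B cells 4 were called at 5 RPKM and 4 against c-Kit-high controls, where TLR2 reversed to -0.001846 and TLR7 and MYD88 lost their calls. For Ik4056 against Ik2709 1 was called with no filter. The cause of these changes was not tested.
With the run as a replicate block the knock-down called 5575 genes in place of 2086, Ik4056 against Ik2709 2407 in place of 358, and Ren713 against the empty vector 9 in place of 0; the 4 members were called in both fits, and the block left their log2 differences as they were (TLR2 1.44, TLR9 1.32, TLR7 0.44, MYD88 0.32). Genes called also moved by over 1.5 times with only the libraries compared (1350 for c-Kit-high and 1547 for Rag2-null deletion, 163 for the hairpins), for Ik2709 against Ren713 (962), for the c-Kit difference at 5 RPKM (520) and for the Rag2 controls with all 30 libraries (1954). With a library left out they ranged from 1688 to 1915, 1322 to 2117 and 1577 to 2509 in the 3 deletions, 918 to 1533 and 327 to 1036 for the differences of effect, 2167 to 3561 for the Rag2 controls, 230 to 369 for the hairpins and 0 to 1 for Ren713 against the empty vector. The share of calls that were higher was 67.4% in c-Kit-high deletion (57.3% with median-ratio scaling, 52.8% with quantile normalization), 69.4% in Rag2-null deletion (50.6% and 58.7%, median shifts of -0.101 and -0.122), 68.9% in the knock-down (57% and 53.1%), 34.4% for the Rag2 controls (53.9% and 45.2%, shift 0.101 with median-ratio scaling) and 78.8% for the hairpins (62.7% with quantile normalization). Depth limits TLR1, TLR3, TLR5 and TLR8, which lay near the worth of a few reads in most libraries.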

Other observations

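TLR1 was under the filter in pre-pro-B cells and differed between the hairpins at the level of single reads. It had 0.0684, 0.104, 0.0646 and 0.0615 RPKM in the Ik2709 libraries and 0, 0.0190, 0 and 0 RPKM in the Ik4056 libraries. All 4 Ik2709 libraries were above all 4 Ik4056 libraries, and the fit without a filter gave -0.10 ± 0.01 for Ik4056 minus Ik2709 (limma, adjusted p = 0.00118). Every Ik2709 value rests on 6 reads or fewer.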
